A study of Mus musculus with 721 samples.

Results

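Neurog3-only progenitors are cells of the embryonic mouse pancreas that held abundant Neurog3 transcripts and little or no transcript of Fev or of 5 hormone genes. They were chosen by measured values: Neurog3 at 100 FPKM or more, Fev below 10 FPKM, and Ins1, Ins2, Gcg, Ghrl and Sst each below 100 FPKM. FPKM counts the fragments of a gene, scaled to its length and to the depth of the cell. The members were 28.5% of 495 kept cells of E13.5, E14.5 and E15.5, leaving 354 other cells of those days, and the series holds 658 kept cells in all. Cells were kept from 100000 fragments upwards if 1500 genes or more stood at 1 FPKM.

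All cells came from pancreata of Neurogenin 3-eGFP embryos, a reporter line, and each was sorted as a single eGFP-positive cell, so every comparison is among reporter-positive cells. The labels give the embryonic day and no strain, sex, treatment or animal. Each day in each of 2 sequencing runs was taken as 1 cell set, which gave 6 sets. The p-values therefore measure the spread between sets, and both sets of a day may come from the same embryos.

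Neurog3 is the basic helix-loop-helix transcription factor that commits progenitors of the pancreatic trunk epithelium to the endocrine fate. Its transcript is made for a short time, while the eGFP protein of the reporter lasts longer. Notch signalling, through Hes1, holds neighbouring cells in the progenitor state. Committed cells then leave the epithelium, pass through a stage that expresses the transcription factor Fev, and begin to make a hormone.

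The members' own markers were Neurog3, Gadd45a (a growth arrest and DNA damage gene), Btbd17, Amotl2 (an angiomotin that restrains YAP) and Cbfa2t3 (a transcriptional corepressor). Their upstream sequences are shown because proteins of the Neurog3 class bind E boxes, which have the letters CANNTG. Each run below is 250 bases before the start of transcription from RefSeq on GRCm38.p6 (mm10), read 5′ to 3′, with every CANNTG in capitals. The windows are chr10:62132840-62133089 on the plus strand for Neurog3, chr6:67037408-67037657 on the minus strand for Gadd45a, chr11:114795893-114796142 on the minus strand for Btbd17, chr9:102717554-102717803 on the plus strand for Amotl2, chr8:122699110-122699359 on the minus strand for Cbfa2t3.

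Neurog3: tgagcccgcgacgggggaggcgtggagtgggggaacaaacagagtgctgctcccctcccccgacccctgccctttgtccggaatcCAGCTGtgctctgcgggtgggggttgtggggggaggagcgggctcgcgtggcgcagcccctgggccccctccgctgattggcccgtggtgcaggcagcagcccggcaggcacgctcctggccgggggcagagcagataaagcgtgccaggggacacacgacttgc
Gadd45a: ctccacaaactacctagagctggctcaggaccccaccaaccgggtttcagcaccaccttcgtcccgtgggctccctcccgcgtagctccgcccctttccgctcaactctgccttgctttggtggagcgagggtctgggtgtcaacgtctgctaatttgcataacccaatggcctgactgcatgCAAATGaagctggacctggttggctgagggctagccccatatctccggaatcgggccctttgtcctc
Btbd17: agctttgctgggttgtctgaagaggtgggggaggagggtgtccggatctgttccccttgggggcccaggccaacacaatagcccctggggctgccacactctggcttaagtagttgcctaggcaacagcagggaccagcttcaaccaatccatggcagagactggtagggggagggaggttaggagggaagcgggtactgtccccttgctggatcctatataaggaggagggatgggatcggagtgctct
Amotl2: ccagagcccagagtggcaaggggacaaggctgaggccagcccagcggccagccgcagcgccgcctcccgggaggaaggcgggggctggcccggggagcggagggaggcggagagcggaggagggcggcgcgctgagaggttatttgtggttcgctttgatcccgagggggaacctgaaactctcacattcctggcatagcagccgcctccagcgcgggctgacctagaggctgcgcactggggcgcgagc
Cbfa2t3: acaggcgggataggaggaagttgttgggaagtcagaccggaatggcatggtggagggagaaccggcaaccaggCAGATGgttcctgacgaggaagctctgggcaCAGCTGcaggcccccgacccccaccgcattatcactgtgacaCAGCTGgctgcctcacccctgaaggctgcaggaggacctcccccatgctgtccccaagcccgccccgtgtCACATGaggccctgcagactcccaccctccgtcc

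The motif reads the same class of letters on both strands, so 1 search covers both. It was found 1 time each upstream of Neurog3 and Gadd45a and 4 times upstream of Cbfa2t3, while the windows of Btbd17 and Amotl2 did not hold these letters. A second start of Cbfa2t3 had 1 match. Of 32851 such windows in the RefSeq table, 66.2% held at least 1 CANNTG, so the 4 of 6 marker windows with a match are near the background.

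Members were 25 of 68 kept cells in E13.5 run 1 (36.8%, 95% exact binomial interval 25.4 to 49.3%) and 26 of 78 in run 2 (33.3%, 23.1 to 44.9%). They were 30 of 94 in E14.5 run 1 (31.9%) and 26 of 85 in run 2 (30.6%). At E15.5 they were 21 of 88 in run 1 (23.9%) and 13 of 82 in run 2 (15.9%, 8.72 to 25.6%). The shares lay lowest at E15.5, and the intervals of neighbouring sets overlapped; these intervals cover counting error only. The other 354 kept cells of these days were 56 with both Neurog3 and Fev, 90 Fev precursors (Fev at 10 FPKM or more, Neurog3 below 100), 150 hormone cells and 58 with neither gene.

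Neurog3 itself spanned a wide range within the progenitors. Its level in single members ran from 103.4 to 10882 FPKM, with a median of 1448 FPKM and quartiles of 788 and 2434 FPKM, and 91 members (64.5%) were at 1000 FPKM or more. Per set the member mean was 1277 FPKM at the lowest, 1880 FPKM at the median and 3153 FPKM at the highest, against 162.6, 183.2 and 656 FPKM in the other cells. The lowest member set was E14.5 run 1 and the highest E15.5 run 2. These values chose the cells and are a description.

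At the edges of the rule, members with the least Neurog3 held 103.4, 120.6 and 129.9 FPKM, and the nearest cell left out held 94.5 FPKM. The highest Fev in a member was 9.40 FPKM and the lowest just outside was 10.7 FPKM. For the hormone genes these values were 94.1 and 135.7 FPKM. Few members lay near the edges: Fev was above 0 in 12 members. All 5 hormone genes were at 0 in 78 members, and 35 had some hormone gene at 10 FPKM or more, which was Ins2 in 17, Ghrl in 11, Sst in 8, Gcg in 7 and Ins1 in 0.

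**Figure D1:**
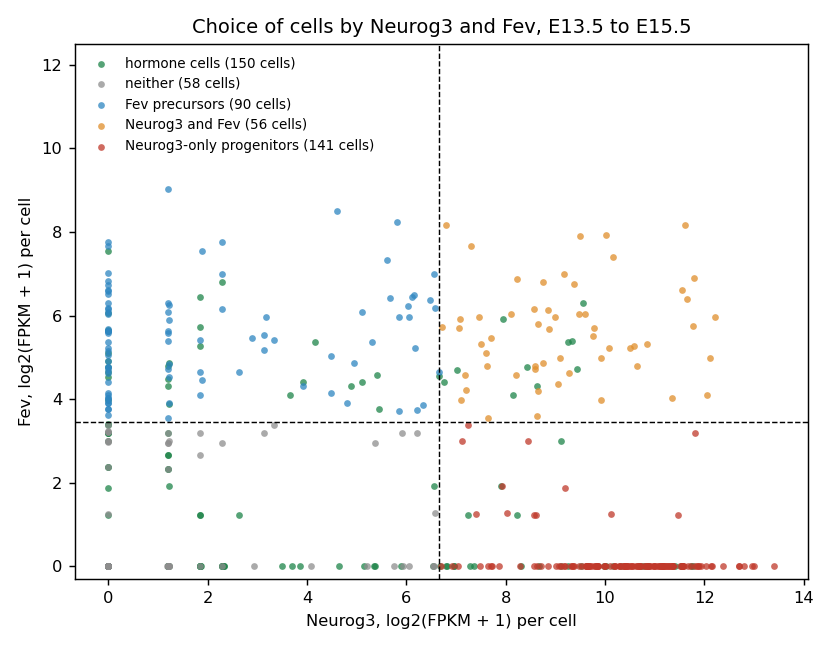
Each point is 1 kept cell of E13.5 to E15.5, with Neurog3 on the x axis and Fev on the y axis, both as log2(FPKM + 1); dashed lines mark 100 FPKM of Neurog3 and 10 FPKM of Fev. All but 12 of the progenitors (red) lie on the line of no Fev, while hormone cells (green) were set aside by their hormone genes and may lie anywhere.

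The mean over sets of fragments per cell was 618670 in members and 609710 in other cells, higher in 3 of 6 sets (exact sign-flip permutation p = 0.8125). Members had fewer detected genes in 6 of 6 sets, with 5351 against 5744 on average (exact permutation p = 0.03125, the smallest that 6 sets allow, adjusted p = 0.0521 over 5 values). The mitochondrial share of FPKM was 8.85% against 7.76%, higher in 6 of 6 sets (exact permutation adjusted p = 0.0521). Both moved with membership, and their part in the differences below was not tested. E13.5 run 1 stood apart, with 149.2 FPKM of the GC-rich ribosomal gene Rpl13 in members where the remaining 5 sets had 1535 to 2261 FPKM. Of all member FPKM, predicted and small RNA genes held 40.2% to 44.2% in run 2 and 7.72% to 11.9% in run 1. Xist marked the E13.5 and E14.5 members (26.7 to 58.7 FPKM) and the Y-linked Ddx3y those of E15.5 (18.2 and 46.8 FPKM), so day and sex cannot be told apart in these sets. Index pairs shared between the runs of a day numbered 70, 95 and 95, as wells of a plate would, and the pair of cells most alike across runs (r = 0.891, E14.5) held no member.

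The reporter's own transcript followed membership. Between 32% and 92.3% of members per set held the eGFP transcript at 1 FPKM or above, where other cells gave 5.797% to 28.8%. Each member set was above the other cells of its own set, with means of 67.6% and 13.1% (exact permutation p = 0.03125, adjusted p = 0.0521). The rule chose members by Neurog3, whose reporter this is. The direction is therefore not independent of the choice of cells, and the values are a description. The lowest member share was that of E13.5 run 1.

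The 4 markers besides Neurog3 were given for these cells with results of these data in view, so their values are a description. Gadd45a per set averaged 98.2 FPKM at the lowest, 341 FPKM at the median and 581 FPKM at the highest in members, and 11.47, 29.3 and 114.1 FPKM in other cells. Only E13.5 run 1 of the member sets lay within the range of the other cells. Amotl2 spanned 46.3, 88.5 and 128.8 FPKM in members and 6.04, 10.6 and 29.8 FPKM in others, with no overlap. Cbfa2t3 spanned 23.3, 42.8 and 63.3 FPKM against 6.66, 11.1 and 22.3 FPKM, and Btbd17 10.04, 14.4 and 20.9 FPKM against 0.873, 2.93 and 8.82 FPKM. Those ranges did not overlap either, though Btbd17 at E13.5 was close in the 2 classes (10.04 against 8.67 FPKM in run 1).

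As log2 differences of members from other cells, on log2(mean FPKM + 1), Gadd45a was 3.06 ± 0.31 (SE, 6 sets), Amotl2 2.60 ± 0.35, Btbd17 1.81 ± 0.42 and Cbfa2t3 1.76 ± 0.23. Within the members the markers were not uniform. Gadd45a reached 10 FPKM in 91.5% of members, Cbfa2t3 in 81.6%, Amotl2 in 80.1% and Btbd17 in 42.6%, against 38.1%, 28.8%, 16.1% and 10.7% of the other cells. Gadd45a, Cbfa2t3 and Amotl2 were thus each present in most members, while Btbd17 was at a low level even here.

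The members were then compared with all other kept cells of the same set across 15571 genes, leaving out the 7 genes of the rule. By limma with the set as a block, 1788 genes passed an adjusted p of 0.05, of which 598 (3.84%) were higher and 1190 (7.64%) lower in members. The set means did not overlap, with members higher, for 0.854% of the genes, and with members lower for 3.42% (533 genes). Over all genes the median log2 difference was -0.23, and -0.06 when log2 values were averaged over cells, so differences are read against that shift. The count fell to 525 with run 1 alone and 22 with run 2 alone, each with 3 sets. Leaving out E14.5 run 1 gave 1025 and leaving out E15.5 run 1 gave 1150. Leaving out E13.5 run 1 gave 450 higher and 1019 lower of 15557 genes. With averaged log2 values 1027 of 15571 genes were higher and 2252 lower.

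**Figure D2:**
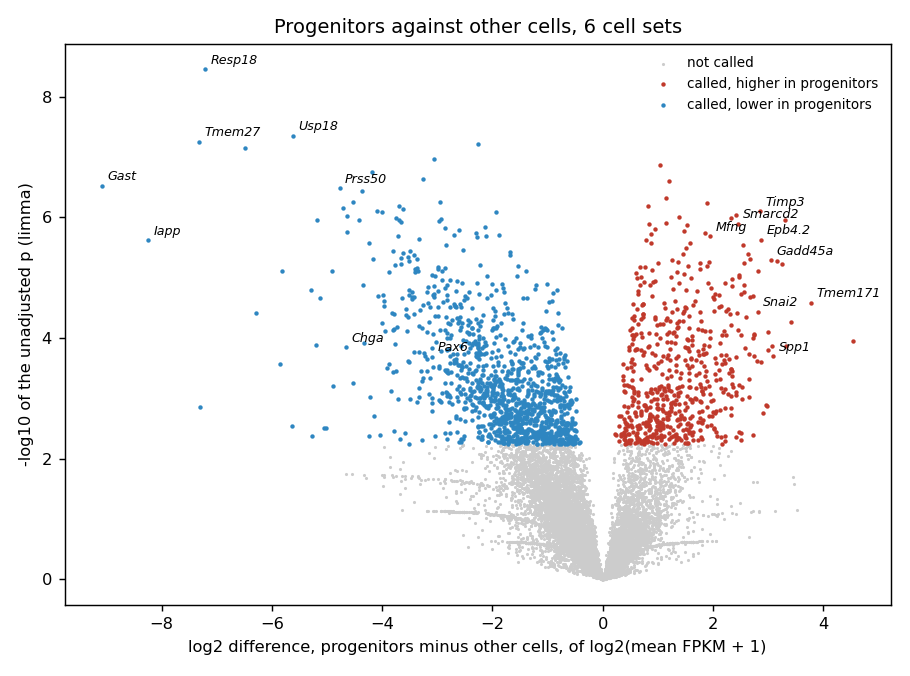
Each point is 1 of 15571 genes, with the log2 difference of progenitors from other cells on the x axis and -log10 of the unadjusted limma p over 6 cell sets on the y axis. The lower side (1190 genes, blue) reaches further than the higher side (598 genes, red), with Gast at -9.07 and Tmem171 at 3.78.

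Genes known to be switched on with or by Neurog3 were mostly higher. Of 22 in this list, 15 were called higher and 3 lower, against 3.84% and 7.64% of all genes, with a median log2 difference of 1.57. The list includes the 4 markers and was drawn up with earlier results known, so it is not independent evidence of its direction. Smarcd2, a subunit of the SWI/SNF chromatin remodelling complex, averaged 266, 365 and 740 FPKM (lowest, median and highest set) in members and 32.7, 92.1 and 137.4 FPKM in others. The ranges did not overlap, and the difference was 2.45 ± 0.21 (adjusted p = 4.97e-04). Smarcd2 reached 10 FPKM in 94.3% of members, 76.8% of cells with both Neurog3 and Fev and 43.3% of Fev precursors.

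Pax4, which directs cells towards the beta and delta lineages, was abundant in members at 1190 ± 639 FPKM (SD, 6 sets) against 496 ± 321 FPKM in others. Its ranges overlapped across sets (428 to 2358 against 205 to 1063 FPKM), but members were higher in 6 of 6 sets, by 1.31 ± 0.16 (adjusted p = 0.00187). Insm1, a zinc finger factor of early endocrine cells, rose without overlap from 13.2 ± 1.62 FPKM in others to 31.9 ± 6.94 FPKM in members (1.20 ± 0.21, adjusted p = 0.00839). Sult2b1, a sulfotransferase gene, was higher by 2.42 ± 0.49 (adjusted p = 0.0150, and 0.0561 without E14.5 run 1).

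The 3 members of the list that went the other way were Neurod1, St18 and Runx1t1. Neurod1, a direct target that persists in hormone cells, averaged 217 ± 127.7 FPKM in members and 397 ± 184.98 FPKM in others, lower in 5 of 6 sets (-0.99 ± 0.24, adjusted p = 0.0333). That call was lost without any 1 of 5 sets (adjusted p = 0.0717 to 0.0888) and held without E15.5 run 1. St18 was lower by 1.998 log2 units (-1.998 ± 0.25, adjusted p = 0.00212) and Runx1t1, the corepressor related to Cbfa2t3, by 1.64 (-1.64 ± 0.29, adjusted p = 0.00809). Cbfa2t3 and Runx1t1 belong to the same corepressor family, and their member means stood in opposite order to the other cells: 43.7 against 12.497 FPKM for Cbfa2t3, and 31.6 against 80.4 FPKM for Runx1t1.

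**Figure D3:**
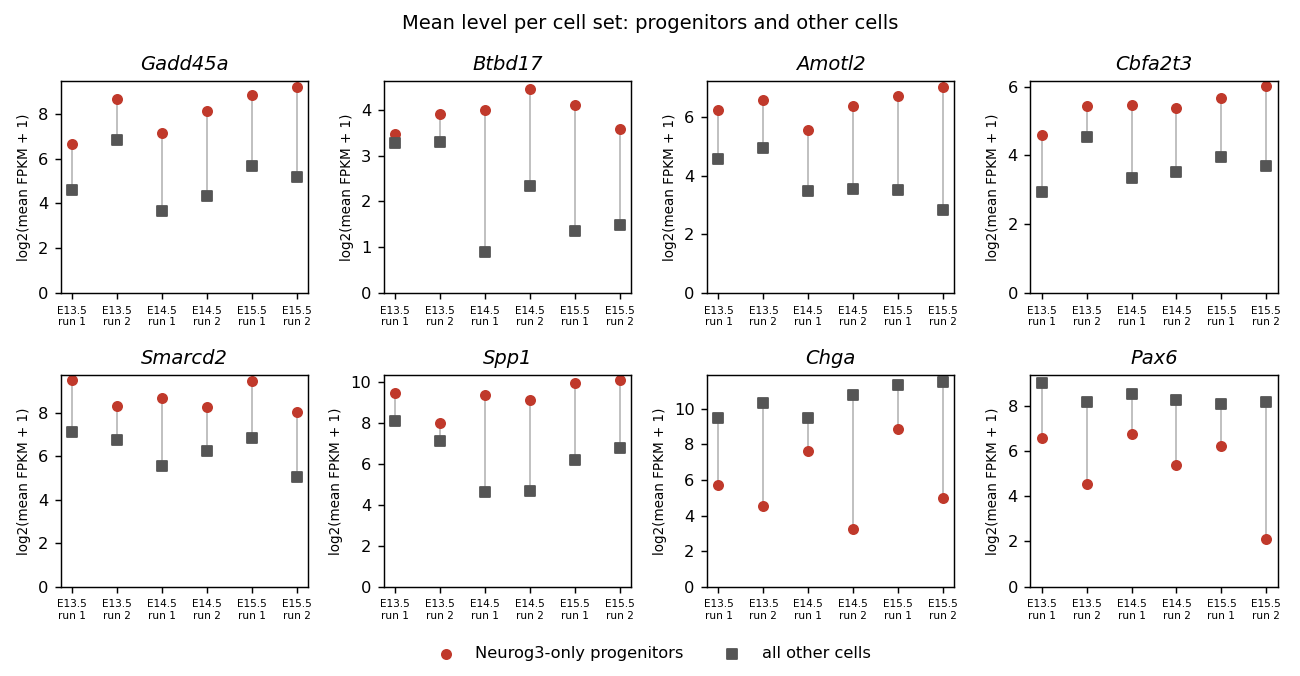
Mean level per cell set, as log2(mean FPKM + 1), in progenitors (red circles) and in all other cells (grey squares), with a line joining each pair. Gadd45a, Btbd17, Amotl2, Cbfa2t3, Smarcd2 and Spp1 are above the other cells in 6 of 6 sets, and Chga and Pax6 below in 6 of 6.

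Notch pathway genes were counted in short lists, against 3.84% of all genes called higher and 7.64% lower. Of 4 ligand genes tested, Dll1 was called, at 8.08, 17.7 and 37.8 FPKM (lowest, median and highest set) in members and 0.614, 2.48 and 9.79 FPKM in others. Dll1 was higher in 6 of 6 sets by 2.32 ± 0.51 (adjusted p = 0.0206), and without E14.5 run 1 or E14.5 run 2 its adjusted p was 0.0619 and 0.0626. Dll1 signals to neighbouring cells, and here it reached 10 FPKM in 39 members (27.7%) and 4.80% of other cells. The only receptor gene tested, Notch1, averaged 1.24 FPKM in members and 2.14 FPKM in others (-0.60 ± 0.38, adjusted p = 0.364).

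Among 11 modulators 2 were higher and 1 lower (1 and 1 without E13.5 run 1), with a median of 0.19. Mfng, a fringe glycosyltransferase that tunes which ligands a Notch receptor answers, had set means of 288, 479 and 742 FPKM in members and 59.9, 118.9 and 281 FPKM in others. The ranges did not overlap, with a difference of 1.95 ± 0.18 (adjusted p = 5.85e-04), and 95.7% of members were at 10 FPKM or more. Rbpj, the DNA-binding partner of Notch, was higher by 1.15 ± 0.26 (adjusted p = 0.0233) and Maml3, a coactivator, lower by 0.98 (-0.98 ± 0.26, adjusted p = 0.0451). Both were at low levels (20.6 and 8.25 FPKM in members). The Rbpj call was lost without either E13.5 set, E14.5 run 1 or E15.5 run 1 (0.0609 to 0.0755), and the Maml3 call without any set but E13.5 run 1 (0.0818 to 0.121).

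Of 4 genes tested from the list of Hes, Hey and related genes, which include Notch targets, Hes6 was called. Hes6, a Hes family member that is not switched on by Notch and acts against Hes1, averaged 331 ± 224 FPKM in members and 119.2 ± 84.02 FPKM in others, higher in 6 of 6 sets (1.38 ± 0.16, adjusted p = 0.00140). Its lowest level in both classes was that of E13.5 run 1 (27.5 and 13.4 FPKM). Hes1 was near the floor, at 3.12 ± 3.80 FPKM in members and 0.641 ± 0.558 FPKM in others (0.91 ± 0.53, adjusted p = 0.326), and reached 10 FPKM in 7 members. At E15.5 the member means of Hes1 were 6.66 and 9.14 FPKM, against at most 1.17 FPKM in the other 4 sets.

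Genes of the trunk epithelium were mixed: of 28 tested, 4 were higher and 6 lower, with a median of -0.13. Of all genes 3.84% were higher and 7.64% lower. Spp1, a secreted phosphoprotein of duct and trunk cells at chr5:104435118-104441050, averaged 256.5, 683 and 1078 FPKM (lowest, median and highest set) in members and 23.6, 89.2 and 272 FPKM in others. Members were higher in 6 of 6 sets by 3.10 ± 0.50 (adjusted p = 0.00602), though E13.5 run 2 of the members lay within the range of the others. Spp1 was uneven among cells: 65 members (46.1%) reached 10 FPKM, the median member held 1.48 FPKM and the highest 6752 FPKM. Krt19, a duct keratin, spanned 192 to 411 FPKM in members and 41.9 to 122.7 FPKM in others without overlap (2.14 ± 0.27, adjusted p = 0.00207).

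Tead2, the DNA-binding partner of YAP, was higher by 2.73 ± 0.33 (adjusted p = 0.00170) and Cldn6, an embryonic tight junction gene, by 1.46 ± 0.14 (adjusted p = 8.60e-04), with no overlap of sets for either. Sox9, the factor that defines the trunk, was not called: 7.77 ± 4.90 FPKM in members and 6.04 ± 2.65 FPKM in others (0.23 ± 0.32, adjusted p = 0.690). Pdx1, the pancreatic homeobox factor, was lower at 4.24 ± 3.41 against 21.99 ± 12.1 FPKM (-2.16 ± 0.43, adjusted p = 0.0145, and 0.0521 without E15.5 run 1). Id2, an inhibitor of helix-loop-helix factors, fell without overlap from 218 ± 108.4 FPKM in others to 28.3 ± 16.1 FPKM in members (-2.91 ± 0.32, adjusted p = 0.00132). Anxa4, an annexin, was lower by 2.28 log2 units (-2.28 ± 0.21, adjusted p = 5.94e-04). Without E13.5 run 1 this list had 5 higher and 4 lower.

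DNA replication genes were higher in part. Of 20, 9 were called higher and 0 lower, with a median of 1.07, against 3.84% of all genes called higher. Mcm3, a subunit of the replicative helicase, had set means of 58.7, 67.2 and 152.7 FPKM in members and 2.02, 9.24 and 37.2 FPKM in others, without overlap (2.81 ± 0.47, adjusted p = 0.00670). Mcm4 followed at 1.81 ± 0.29 (adjusted p = 0.00579). Mcm5 (1.92 ± 0.44, adjusted p = 0.0252) and E2f1 (1.55 ± 0.37, adjusted p = 0.0299) were less firm: each call was lost without any 1 of 4 sets, with adjusted p of 0.0580 to 0.0821 for Mcm5 and 0.0539 to 0.0775 for E2f1. For Mcm5 these were E13.5 run 2, E14.5 run 1 and both E15.5 sets, and for E2f1 E13.5 run 1, both E14.5 sets and E15.5 run 1.

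Of 23 mitosis genes, 2 were called higher, Ccnb2 and Bub1b, against 3.84% of all genes, and 0 lower. All 23 had a positive difference (median 0.69). With averaged log2 values 4 were higher and the median was 0.23. Ccnb2, a mitotic cyclin, averaged 28.2 FPKM in members and 1.98 FPKM in others without overlap of sets (3.07 ± 0.48, adjusted p = 0.00490), but it was at 10 FPKM or more in only 18 members (12.8%). Bub1b, of the spindle checkpoint, was higher by 1.55 ± 0.39 (adjusted p = 0.0361), and without either E14.5 set or either E15.5 set its adjusted p was 0.0879 to 0.111. The Bub1b call was also lost when the hormone cells were left out of the other cells, with Neurog3 at 200 FPKM or more, with Fev below 1 FPKM, without the filter and without the set as a block. Mki67, the proliferation marker, reached 10 FPKM in 4.09% of members and 1.504% of other cells as means over sets, higher in 4 of 6 sets (exact permutation p = 0.28125, adjusted p = 0.352).

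Among 14 cyclin D and cell cycle inhibitor genes, 4 were higher and 1 lower (4 and 0 without E13.5 run 1). The higher ones include the marker Gadd45a, which was given with results of these data in view. The shares of all genes were 3.84% higher and 7.64% lower. Gadd45g, a relative of Gadd45a, averaged 453 ± 271 FPKM against 132.3 ± 70.8 FPKM (1.72 ± 0.24, adjusted p = 0.00328), Ccnd3, a D cyclin, 164.4 ± 90.5 against 65.4 ± 45.9 FPKM (1.47 ± 0.20, adjusted p = 0.00282), and Btg2, an antiproliferative gene, 1028 ± 426 against 465 ± 211 FPKM (1.15 ± 0.16, adjusted p = 0.00275). Each was higher in 6 of 6 sets although the ranges overlapped. Cdkn1b, the p27 inhibitor, was lower at 4.47 ± 3.01 against 13.2 ± 4.39 FPKM (-1.58 ± 0.38, adjusted p = 0.0292). The Cdkn1b call was lost without either E13.5 set, E14.5 run 2 or E15.5 run 2 (adjusted p = 0.0522 to 0.0830).

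Of 17 genes of delamination and cell shape, 5 were higher and 3 lower, against 3.84% and 7.64% of all genes. Snai2, a zinc finger repressor of epithelial genes, had set means of 5, 13.7 and 31.1 FPKM in members and 0.0137, 1.16 and 4.22 FPKM in others, without overlap (2.82 ± 0.37, adjusted p = 0.00232). It was found at 10 FPKM or more in 26 members (18.4%) and 1.13% of other cells. Stmn1, which destabilises microtubules, was in 99.3% of members at 10 FPKM or more and averaged 1081 ± 505 against 260 ± 213 FPKM (2.28 ± 0.29, adjusted p = 0.00214). Cdh3, P-cadherin, was higher by 2.35 ± 0.45 (adjusted p = 0.0120), and Tubb3, a neuronal tubulin, by 1.36 ± 0.14 (adjusted p = 9.87e-04).

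Snai1 was higher by 1.74 ± 0.39 (adjusted p = 0.0230), with 5.61 FPKM in members, and lost its call without any set but E13.5 run 2 (0.0513 to 0.0713). Cdh1, E-cadherin of epithelial junctions, was lower in 6 of 6 sets, at 73.2 ± 37.3 against 143.3 ± 41.6 FPKM (-1.06 ± 0.24, adjusted p = 0.0221), and its adjusted p was 0.0516 to 0.0729 without E13.5 run 1, E14.5 run 2 or E15.5 run 1. Vim, the intermediate filament of mesenchymal cells, was lower too (-1.13 ± 0.25, adjusted p = 0.0210), and its adjusted p was 0.0519 to 0.0660 without any 1 set of E13.5 or E14.5. Cdh2, N-cadherin, was at 1.16 against 8.41 FPKM (-2.06 ± 0.49, adjusted p = 0.0308), a call that held only without E13.5 run 1 (0.0618 to 0.0942 without each other set). The calls of Cdh1 and Cdh2 were also lost without the hormone cells, and that of Vim with averaged log2 values. Without E13.5 run 1 the list had 4 higher and 1 lower.

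Of 16 YAP, TEAD and Hippo genes, only Amotl2 and Tead2 were called, both higher, against 3.84% of all genes higher. Amotl2 is a marker that was given with results of these data in view. The list's median was 0.03. Yap1 itself differed by 0.05.

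Later endocrine transcription factors were mostly lower. Of 27 tested, 15 were lower and 3 higher (Pax4, Insm1 and Nkx2-2), with a median of -1.52, against 7.64% of all genes lower. Nkx2-2, a homeobox factor shared by endocrine cells, had 0.89 ± 0.23 (adjusted p = 0.0419) and lost its call without any 1 set (0.0574 to 0.115). Pax6, which hormone genes need, averaged 3.37, 57.1 and 105.6 FPKM (lowest, median and highest set) in members and 265, 293 and 516 FPKM in others. No sets overlapped, and the lowest was E15.5 run 2 (-3.10 ± 0.51, adjusted p = 0.00613). Isl1, an islet LIM factor, was at 105.7 ± 110.6 against 654.6 ± 109.3 FPKM (-3.51 ± 0.59, adjusted p = 0.00691). Irx2, an alpha cell factor, was lower by 2.46 log2 units (-2.46 ± 0.35, adjusted p = 0.00347), a call that was lost without the hormone cells (adjusted p = 0.197). With log2 values averaged over cells, 15 of the 27 were lower and 6 higher, and the median was -0.64.

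Secretory granule and prohormone processing genes were lower as a group: 23 of 29 lower and 0 higher, with a median of -2.87, against 7.64% of all genes lower. Chga, chromogranin A, had set means of 8.53, 41.7 and 470 FPKM in members and 703, 1539 and 2894 FPKM in others. No sets overlapped (-4.65 ± 0.72, adjusted p = 0.00498), and the median member held 0 FPKM. Chgb, chromogranin B, was uneven in members: its median cell held 8.99 FPKM, its highest 33313 FPKM, and its set means spanned 51.5 to 2049 FPKM against 5175 to 9208 FPKM in others (-3.997 ± 0.55, adjusted p = 0.00295). Resp18, a granule lumen gene, was at 10 FPKM or more in 2 members and 50% of other cells (-7.21 ± 0.30, adjusted p = 5.49e-05). Pcsk2, the prohormone convertase, was lower by 5.29 log2 units (-5.29 ± 0.62, adjusted p = 0.00157) and Scg2, secretogranin II, by 5.81 (-5.81 ± 0.62, adjusted p = 0.00109). The median set mean of Scg2 was 0.0444 FPKM in members, 0.108 in cells with both Neurog3 and Fev, and 161.6 in hormone cells. That of Pcsk2 was 3.42, 83.9 and 314.9 FPKM in the same order.

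Because 150 of the other cells had been set aside for a hormone gene, the count was repeated without them, an alternative added after seeing the data. The granule list then had 22 of 29 lower (median -2.52) and the endocrine factors 13 of 26 lower and 3 higher. The Neurog3 list had 16 higher and 3 lower, and replication genes 9 of 20 higher. Of all 15283 genes in that count, 739 were lower and 647 higher. Without E13.5 run 1 but with hormone cells, granule genes had 24 of 29 lower, and endocrine factors 14 of 27 lower and 2 higher. The Neurog3 list then had 15 higher and 2 lower and replication genes 10 of 20 higher, against 450 of 15557 genes higher and 1019 lower.

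Peptide genes that the rule did not use were mostly lower than in other cells. Of 10 tested, 6 were lower and 1, Cck, higher, against 7.64% and 3.84% of all genes. The other cells include all 150 hormone cells, so the direction of this list is not independent of the choice of cells. Without the hormone cells 5 of 9 peptide genes were lower and 0 higher, against 739 and 647 of 15283 genes. Gast, the gastrin gene, was at 6.04 FPKM in members, of which E13.5 run 2 gave 30.02 FPKM, and at 818 to 8632 FPKM in others (-9.07 ± 0.65, adjusted p = 4.23e-04). Iapp, the amylin gene of beta cells, was at 0 to 7.44 FPKM in member sets and 140 to 8746 FPKM in others (-8.25 ± 0.76, adjusted p = 6.19e-04). Pyy (peptide YY) was lower by 6.29 (-6.29 ± 0.82, adjusted p = 0.00236) and Ppy (pancreatic polypeptide) by 5.84 (-5.84 ± 0.99, adjusted p = 0.00718). Gip, the incretin gene, was at 10 FPKM or more in 0 members (-5.20 ± 0.80, adjusted p = 0.00476), and its call was lost without the hormone cells. Single members could still be high: Pyy reached 7769 FPKM and Ppy 6072 FPKM in the highest cell. Cck, cholecystokinin, reached 10 FPKM in 56.7% of members and 54.5% of other cells. It averaged 218 against 148.8 FPKM (0.54 ± 0.11, adjusted p = 0.0190), and its adjusted p was 0.0679 to 0.0736 without E13.5 run 2 or E14.5 run 1. The Cck call was also lost without the hormone cells, with averaged log2 values, with FPKM rescaled to leave out predicted and small RNA genes, and without the set as a block. With averaged log2 values 8 of the 10 peptide genes were lower and 0 higher, and the median was -1.03.

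Amine genes that accompany Fev were low in the same way, with 4 of 7 lower and 0 higher, against 7.64% of all genes lower. The rule kept Fev below 10 FPKM in members, while 51.4% of other cells held it at 10 FPKM or more. The direction of this list is therefore not independent of the choice of cells. Ddc, which makes serotonin and dopamine from their precursors, was at 21.04 ± 15.97 against 51.9 ± 16.8 FPKM (-1.45 ± 0.23, adjusted p = 0.00506). Gch1, which makes the cofactor of their synthesis, was lower by 3.10 (-3.10 ± 0.34, adjusted p = 0.00121) and Maob, a monoamine oxidase, by 3.77 (-3.77 ± 0.58, adjusted p = 0.00463). Slc18a1, a vesicular monoamine transporter, was lower by 2.04 (-2.04 ± 0.44, adjusted p = 0.0191), with 0.0527 to 0.0685 without E13.5 run 2 or E14.5 run 1.

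**Figure D4:**
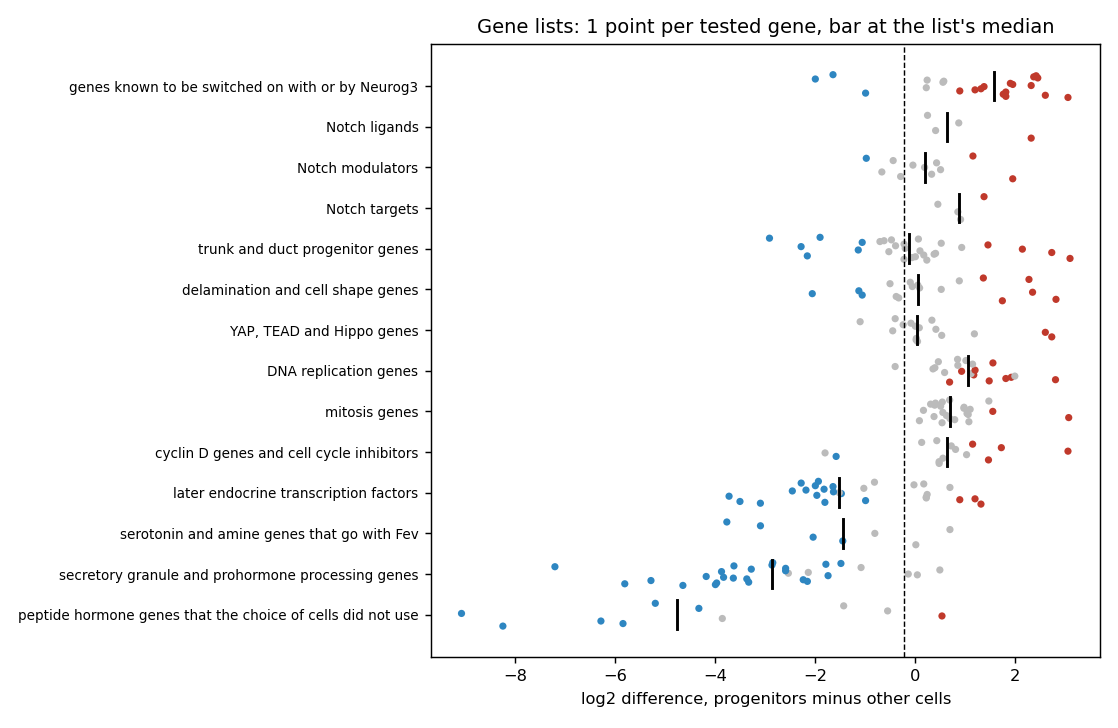
Each point is 1 tested gene of a list, with its log2 difference of progenitors from other cells on the x axis; red and blue mark genes called higher and lower, grey those not called, black bars the list medians and the dashed line the median of all genes (-0.23). The Neurog3 list (median 1.57) and replication genes (1.07) lie to the right, and granule genes (-2.87) and peptide genes (-4.76) to the left.

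Outside the lists, Tmem171 had the largest higher difference among genes named by size. Tmem171, a membrane protein gene, had set means of 89.2, 144.4 and 165.2 FPKM in members and 2.07, 9.08 and 41.8 FPKM in others (3.78 ± 0.47, adjusted p = 0.00193). Habp2, a secreted hyaluronan-binding protease, was higher by 3.33 ± 0.52 (adjusted p = 0.00490), Kirrel2, an adhesion molecule, by 3.25 ± 0.33 (adjusted p = 0.00101) and Rhbg, an ammonia transporter, by 3.01 ± 0.47 (adjusted p = 0.00530). None of these 4 overlapped between the classes. They were present in part of the progenitors: at 10 FPKM or more in 73.05% of members for Kirrel2, 59.6% for Habp2, 50.4% for Tmem171 and 36.9% for Rhbg.

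H19, the imprinted non-coding RNA, averaged 94.96 ± 15.96 FPKM in members and 15.45 ± 13.4 FPKM in others (2.99 ± 0.43, adjusted p = 0.00353). Timp3, a metalloprotease inhibitor, was higher by 2.85 ± 0.23 (adjusted p = 4.96e-04), Epb4.2, a band 4.2 membrane skeleton gene, by 2.87 ± 0.26 (adjusted p = 6.19e-04), Rasgrp3, a Ras activator, by 3.16 ± 0.32 (adjusted p = 9.87e-04) and Sftpc, surfactant protein C, by 2.88 ± 0.48 (adjusted p = 0.00688). Serpina6, a hormone-binding serpin (2.96 ± 0.63, adjusted p = 0.0188), lost its call without E15.5 run 2 (0.0532). Rasl11b, a small GTPase (2.98 ± 0.64, adjusted p = 0.0196), lost it without E14.5 run 1, E15.5 run 1 or E15.5 run 2 (0.0568 to 0.0656).

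Genes that are neither granule nor peptide genes were on the lower side too. Usp18, which removes the ubiquitin-like protein ISG15, lies at chr6:121245906-121270916. Its set means were 0.0847, 3.15 and 12.9 FPKM in members and 87.8, 155.05 and 571 FPKM in others, with no overlap (-5.62 ± 0.32, adjusted p = 2.21e-04). It was at 10 FPKM or more in 6 members (4.26%), 41.1% of cells with both Neurog3 and Fev, 71.1% of Fev precursors and 58% of hormone cells. Tmem27, a collectrin of beta cells (-7.32 ± 0.43), Rbp4, a retinol carrier (-6.49 ± 0.39), Papss2, which makes the sulfate donor (-5.18 ± 0.43), G6pc2, the islet glucose-6-phosphatase (-5.12 ± 0.62), and Entpd3, an islet ectonucleotidase (-4.91 ± 0.52), were lower with adjusted p of 2.21e-04 to 0.00173, each below the others in 6 of 6 sets.

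Cells with both Neurog3 and Fev are the nearest class, since the rule separates them by Fev alone. Neurog3 itself was also lower in them. Its set means were 435, 881 and 1753 FPKM (lowest, median and highest), against 1277, 1880 and 3153 FPKM in members. The part of this in the differences below was not tested. Against these 56 cells, 54 of 14582 genes (0.37%) were called higher and 73 (0.501%) lower in members. With FPKM rescaled to leave out predicted and small RNA genes the split was 97 higher and 78 lower. The call count was 41 to 80 when 1 set was left out, lowest without E14.5 run 1. Sets held as few as 5 cells of this class (E13.5 run 1).

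Granule genes differed most often: 9 of 28 were lower in members and 0 higher. Later endocrine factors had 5 of 25 lower and 0 higher. The Neurog3 list had 2 of 22 higher and 2 lower, and replication genes 1 of 20 higher. Mitosis genes had 0 of 23 called, and peptide and amine genes 0 of 7 each. Chga averaged 130.8 ± 180 FPKM in members and 1558 ± 660 FPKM in cells with both (-4.63 ± 0.69, adjusted p = 0.0184, and 0.0661 without E15.5 run 2), and Chgb 815 ± 819 against 7777 ± 2405 FPKM (-4.09 ± 0.54, adjusted p = 0.0118). Pax6 was lower by 3.15 (-3.15 ± 0.43, adjusted p = 0.0133) and Scgn, the calcium sensor secretagogin, by 2.72 (-2.72 ± 0.33, adjusted p = 0.0107). Usp18 was lower by 5.12 (-5.12 ± 0.40, adjusted p = 0.00127). Anxa4 (-2.13 ± 0.24, adjusted p = 0.0105) and Runx1t1 (-2.43 ± 0.29, adjusted p = 0.0107) were lower as well.

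On the higher side, Spink4, a protease inhibitor, was called (5.18 ± 0.67, adjusted p = 0.0113). The marker Gadd45a, given as a description, was at 327 ± 188.1 FPKM against 68.6 ± 71.9 FPKM in cells with both (2.53 ± 0.34). Spp1 (4.10 ± 0.59, adjusted p = 0.0170), Wfdc2 (5.09 ± 0.89, adjusted p = 0.0336), Habp2 (4.27 ± 0.72, adjusted p = 0.0292), Rhbg (4.16 ± 0.69, adjusted p = 0.0287) and Tmem171 (4.55 ± 0.84, adjusted p = 0.0410) were higher, but each of these 5 lost its call without at least 3 of the 6 sets. The adjusted p without those sets was 0.0524 to 0.0593 for Spp1, 0.0730 to 0.103 for Wfdc2, 0.0750 to 0.117 for Habp2, 0.0761 to 0.115 for Rhbg and 0.0648 to 0.130 for Tmem171. E13.5 run 1 and E15.5 run 2 were among them for all 5 genes. Spp1 lost the call without E14.5 run 1 besides, Wfdc2, Rhbg and Tmem171 without E14.5 run 1 or E15.5 run 1, Habp2 without either E14.5 set, and Tmem171 also without E13.5 run 2.

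The other markers, again as a description, were at 43.7 ± 13.04 FPKM in members and 32.4 ± 14.04 FPKM in cells with both for Cbfa2t3 (0.47 ± 0.31), at 88.6 against 19.4 FPKM for Amotl2 (2.48 ± 0.50) and at 14.54 against 8.22 FPKM for Btbd17 (1.15 ± 0.50). Pax4, at 1190 against 1006 FPKM (0.17 ± 0.18, adjusted p = 0.707), and Mfng, at 502 against 309 FPKM (0.76 ± 0.20, adjusted p = 0.123), did not pass the test between these 2 classes. A p above the threshold does not show that the classes were alike. Gast, far lower than in all other cells, was at 6.04 FPKM in members and 6.32 FPKM here (-0.25 ± 0.62, adjusted p = 0.896).

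Against the 90 Fev precursors, which hold Fev without Neurog3, 1319 of 14972 genes were called, 726 higher (4.85%) and 593 lower (3.96%). The 3 comparisons share the member cells, so their values are set side by side and not counted as separate evidence. Of the Neurog3 list 16 of 22 were higher and 3 lower, replication genes had 10 of 20 higher and mitosis genes 5 of 22 (Top2a, Ccnb2, Aurka, Tpx2 and Cdc20). Granule genes had 20 of 29 lower and 0 higher. Without E14.5 run 1 the calls numbered 826. Tmem171 (6.12 ± 0.55, adjusted p = 2.78e-04), Prss8, a membrane serine protease (6.01 ± 0.38, adjusted p = 1.49e-04), and Mcm3 (5.53 ± 0.48, adjusted p = 2.50e-04) were among the largest higher differences. Prss8 reached 10 FPKM in 43.97% of members and 0 of the 90 Fev precursors.

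The lower side held Gast (-7.75 ± 0.77, adjusted p = 4.73e-04), Tmem27 (-6.29 ± 0.60, adjusted p = 3.88e-04), Resp18 (-6.24 ± 0.51, adjusted p = 2.15e-04), Usp18 (-6.18 ± 0.40, adjusted p = 1.49e-04) and Prss50, a testis-type serine protease gene (-5.32 ± 0.43, adjusted p = 2.15e-04). Prss50 was at 10 FPKM or more in 0 members and 27.8% of Fev precursors. The lead markers were far apart here, with Amotl2 at 88.6 against 2.91 FPKM and Gadd45a at 327 against 19.1 FPKM.

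**Figure D5:**
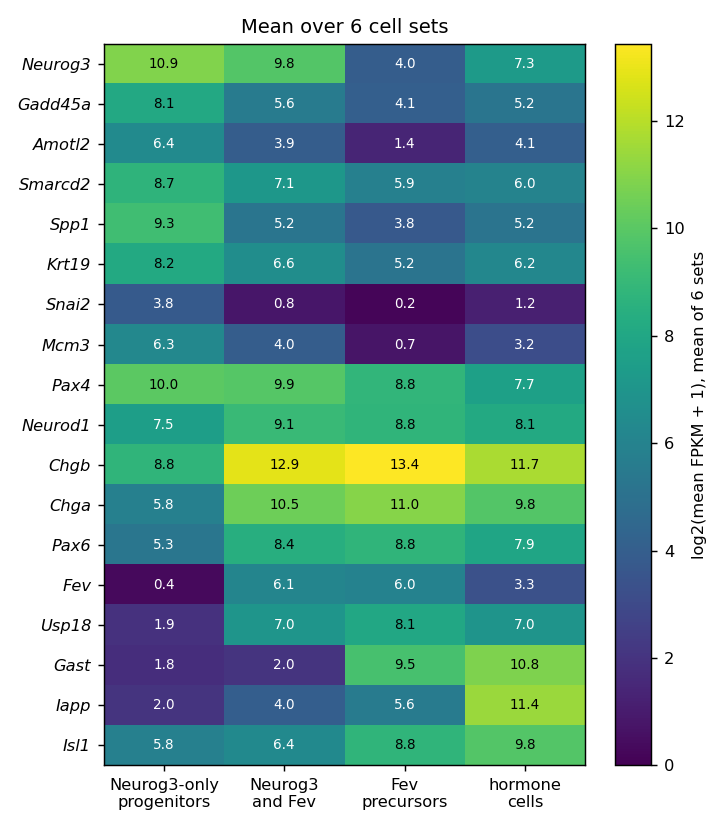
Rows are genes and columns are 4 classes of cells, and each cell gives log2(mean FPKM + 1) averaged over 6 cell sets. Gadd45a falls from 8.1 in progenitors to 5.6 with Neurog3 and Fev and 4.1 in Fev precursors, while Chga stands at 5.8, 10.5 and 10.97 and Gast at 1.8, 2.0 and 9.5; Neurog3 and Fev chose the classes.

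Along embryonic day, with run as a term, 0 of 14331 genes (0%) passed by limma in the members, with a lowest adjusted p of 0.145 and 1318 genes at an unadjusted p under 0.05 (355 rising, 963 falling). With log2 values averaged over cells 48 genes passed, with a filter at 5 FPKM Timp3 and the predicted gene Gm15055 (both adjusted p = 0.0405), and without E14.5 run 2 the amino acid transporter gene Slc38a5 (-3.31 per day, adjusted p = 0.0236). Timp3 had the lowest adjusted p among the genes named here: its member means were 178.8 and 156.5 FPKM at E13.5, 49.6 and 40.99 FPKM at E14.5 and 12.6 and 6.46 FPKM at E15.5, a slope of -2.03 ± 0.22 log2 units per day (adjusted p = 0.145). The sets of each day did not overlap with those of the next. Other cells had 32.96 and 18.4, 3.58 and 4.22, and 0.898 and 0.481 FPKM on the same days, so the level went down in both classes while members stayed above. Serpina6 had a slope of -1.54 ± 0.47 (adjusted p = 0.470), Usp18 -1.42 ± 0.42 (0.470), Chgb -1.12 ± 0.20 (0.448) and Gadd45a 0.68 ± 0.26 (0.531), and none of these 4 passed by limma.

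Within the members, Neurog3 was ranked against each list gene that reached 10 FPKM in at least 20% of the cells. Over all member cells, ranked within sets, the highest rank correlations were with Smarcd2 (0.57), Gadd45a (0.54), Btg2 (0.52), Cldn6 (0.49) and Mfng (0.48). The lowest were Scgn (-0.20), St18 (-0.19), Cdkn2d (-0.18), Chga (-0.16) and Gata6 (-0.14). Cells of a set share library preparation and differ in depth, so these are descriptions of these cells. The 5 most positive genes were all expressed in over 90% of members, and the negative ones in 21.99% to 30.5%, where few cells carry the values.

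Markers of other cell types were low for the most part. No gene of the acinar, leukocyte, endothelial, mesenchymal, glial or erythroid lists was called, with 8, 8, 1, 3, 3 and 1 genes tested; without E13.5 run 1, the leukocyte gene C1qa was lower (-3.20, adjusted p = 0.0210). The summed acinar markers were 20.2 to 192 FPKM in member sets and 22.2 to 318 FPKM in others, led by Ctrb1, which 13 members held at 10 FPKM or more; Amy2a5 was at 0 in every member. Leukocyte markers summed to 1.48 to 9.76 FPKM in members and 4.50 to 373 FPKM in others. Mesenchymal ones summed to 0.234 to 19.3 and 0.657 to 10.9 FPKM, with Twist2 at 0 in every member. Dcn was the highest of them in members, at 10 FPKM or more in 5 members (3.55%) and 5.65% of other cells. Endothelial sums were 0.510 to 7.19 FPKM in members and 1.64 to 6.45 FPKM in others. Glial and neuronal sums were 9.64 to 21.9 and 9.92 to 22.5 FPKM, with Fabp7 at 0 in every member. Ret led this list, at 10 FPKM or more in 32 members (22.7%) and 13.8% of other cells. Erythroid sums were 0 to 9.38 and 1.30 to 6.77 FPKM.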

How the data were processed

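Pancreas cells of Neurogenin 3-eGFP embryos were sorted singly by eGFP and sequenced as SMART-seq cDNA without molecular identifiers, so copies of 1 molecule cannot be told apart. The authors deposited FPKM values per gene for each cell. TopHat2 2.0.13, Cufflinks 2.2.0 and the build mm10 are named, per the submitters' processing notes; the annotation was not stated. Fragments per cell are the total mass of the labels.

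Of 32913 entries, 32806 Ensembl genes entered; Glis3 and Zbtb20 of the lists have 2 entries each and were left out. By the rule, 141 of 495 cells were members. Mean FPKM per class and cell set was taken as log2(mean FPKM + 1) and tested by limma 3.58.1 (R 4.3.3; set as block, intensity trend, two-sided, Benjamini-Hochberg over all genes tested, threshold 0.05), for genes with a mean of at least 1 FPKM. This scale understates changes of low genes. A class needed 5 cells in a set. Single values used a two-sided exact sign-flip permutation test over 6 sets, adjusted over 5 values. Fits were tested on simulated data. Doublets were not searched for.

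The members and the 21 gene lists were chosen with earlier results of these data known. Named genes were the 7 rule genes, the 5 markers, up to 14 higher and 14 lower genes (6 and 6 in the other contrasts) by size of difference with the same sign in every set and a mean of at least 20 FPKM, up to 4 per list, and the 5 highest and 5 lowest of 102 correlations; predicted genes were not named, and 3 list genes are not reported here. Pax4, Neurod1, Insm1, Nkx2-2, Krt19, Sox9, Pdx1, Cdh1, Vim, Snai1, Hes1, Cck, Runx1t1, Yap1, Tubb3, C1qa, Gm15055, Slc38a5 and the mitosis genes against Fev precursors were named after their values were seen. Alternatives varied the pseudocount, averaging, filters, scaling, depth, the Neurog3 and Fev thresholds, runs, sets and the block; leaving out the other cells with a hormone was added after seeing the data.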

Additional observations from a re-analysis of the deposited data

Results flagged for a closer look

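The log2 difference of each named gene was examined for a set far from the other 5, which chance gives for about 1 gene in 20, and 4 genes had such a set. For Kirrel2 the difference of members from other cells was 5.13 in E14.5 run 1, above the rest. For Gprc5a, a retinoic acid induced receptor, it was 1.54 in E13.5 run 1, where members averaged 93.2 FPKM and 1 cell reached 2277 FPKM. For Fcer1g, a leukocyte gene, it was -5.64 in E15.5 run 2, where the other cells averaged 49.03 FPKM. For Cdkn2d, a cell cycle inhibitor, it was -5.75 in E14.5 run 2.

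For 2 genes both sets of 1 day all moved one way and those of another day the opposite way, which was not tested. Dcn, a mesenchymal gene, differed by -0.79 at E13.5, by -1.73 at E14.5 and, in the opposite direction, by 1.21 at E15.5. Hes1 differed by -0.43 at E13.5, by 0.67 at E14.5 and by 2.49 at E15.5, at levels of at most 9.14 FPKM.

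Outside the days compared, 4 of 73 kept cells at E11.5 met the same thresholds (5.48%, exact binomial interval 1.51 to 13.4%) and 1 of 90 at E12.5 (1.11%).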

How the results depend on the processing

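The share of tested genes called against all other cells, 11.48%, became 21.1% with log2 values averaged over cells (3279 genes), 4.21% without the filter (1170), 3.72% in run 1 alone (525) and 0.138% in run 2 alone (22), and 6.49% to 9.44% with 1 set left out (1025 to 1469). Against cells with both Neurog3 and Fev, 0.871% became 3.18% with averaged log2 values (463 genes), 0.0800% without the filter (21), 0.0759% with Neurog3 at 200 FPKM or more (11, from 4 sets), 0.0910% in run 1 (12) and 0.0945% in run 2 (14), and 0.280% to 0.545% with 1 set left out (41 to 80). Against Fev precursors, 8.81% became 14.9% (2226), 3.06% (811), 2.81% (386) and 0.880% under the averaged, unfiltered, run 1 and run 2 settings, and 5.47% to 7.23% with 1 set left out (826 to 1068). Along day, 0 genes became 0.335% (48) with averaged log2 values, 0.0222% (2) with a filter at 5 FPKM, and 0 to 0.00716% (1 gene, without E14.5 run 2) with 1 set left out. Single runs hold 3 sets, and the unfiltered fit tests more genes; the cause of the other moves was not tested.

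Pairing was by the cell set, since both classes come from the same sets. Without that replicate block 6.26% of genes (974) were called against other cells, 88 genes against cells with both and 5.14% (770) against Fev precursors.

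Of 84 named genes called against other cells, 63 kept their call with any 1 set left out and 21 did not. Against cells with both 8 of 25 kept it, and against Fev precursors 66 of 74. Genes named by size had passed the same test with the same sign in every set. These shares therefore do not stand for all called genes. The Dcn difference, not called, changed sign with averaged log2 values (0.043) and without hormone cells (0.046). The difference in fragments per cell, 8960, lay between -6656 and 34866 with 1 set left out, and at -803 without E14.5 run 2. The files hold FPKM without counts, so the sampling error of a low value is unknown.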
